A study of Homo sapiens with 18 samples.

Results

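The genes described here are 10 metalloproteases and metalloprotease inhibitors: the sheddases *ADAM10* and *ADAM17*, the related membrane proteases *ADAM8*, *ADAM9* and *ADAM15*, the secreted protease *ADAMTS9*, the gelatinase *MMP2*, and the inhibitors *TIMP1*, *TIMP2* and *TIMP3*. They were picked by symbol from the 26941 genes of 3 raw count tables, and all 10 were found. For each gene the transcript with the highest total count over the 18 samples stands for the gene. The list was drawn up with the level of these genes in each cell line and their difference with *SOX11* siRNA already known. The values of these 10 genes are therefore given as a description, with no p-value.

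RNA was sequenced from 3 established cell lines of B-cell precursor acute lymphoblastic leukemia, REH, 697 and RCH-ACV. Per line, 3 samples were nucleofected with 300 nM of siRNA against *SOX11*, which codes for a transcription factor, and 3 with 300 nM of a non-specific control siRNA, and RNA was collected 48 h later. The sample titles write KO for the *SOX11* siRNA samples, but the treatment is a transient knockdown and no gene was deleted. All samples were transfected, so each comparison is of *SOX11* siRNA with control siRNA in cells of 1 line. The replicates were separate biological replicates. The p-values below set a difference against the spread between replicates, which are cultures of the same line.

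Metalloproteases of the ADAM family are anchored in the membrane, carry a zinc ion in the active site, and cut the extracellular part off other membrane proteins, a step called shedding. *ADAM10* starts the cleavage of Notch receptors and sheds cadherins, *CD44* and CD23, and *ADAM17* sheds TNF and the TNF receptors. Secreted MMPs such as *MMP2* degrade collagens and other matrix proteins. TIMPs are small secreted proteins that block the active site of MMPs, and *TIMP2* also takes part in the activation of *MMP2* at the cell surface. In lymphoid cells, shedding takes adhesion molecules and receptors off the surface, and some TIMPs, though not each of them for each sheddase, limit it.

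A 7-base word links 2 of the genes to earlier work on these data, and the sites are shown here because the results below come back to them. The word GTGACGC had been picked in that work because genes that carry it in the 3′ UTR were lower with *SOX11* siRNA, so its presence in genes chosen for being lower is partly built in. Among 18179 genes with an annotated 3′ UTR, 250 (1.38%) hold the word on the mRNA strand. Of the 10 genes, *ADAM10* and *TIMP2* hold it in the 3′ UTR, 1 copy each, and the other 8 hold none there. The *SOX11* mRNA, the target of the siRNA, holds 1 copy in its own 3′ UTR of 7338 bases. A long 3′ UTR has more room for the word, and the share over all genes is not matched for length. The 3′ UTR has 8738 bases in *ADAM10*, 2690 in *TIMP2* and 3664 in *TIMP3*. In the rest of the 10 genes it has 98 (*TIMP1*) to 1691 bases (*ADAM17*). *MMP2* holds 1 copy upstream of its 3′ UTR, a place where 953 of the 18179 genes (5.24%) have the word. The 4 sites are given 5′ to 3′ on the mRNA strand with 11 bases on either side, read from GRCh37, with the word in capitals.
SOX11 (chr2:5834341-5834369, plus strand, 3′ UTR): gataagatgtcGTGACGCaaagaaattgg
ADAM10 (chr15:58888234-58888262, minus strand, 3′ UTR): attctcataatGTGACGCaagccagcaag
TIMP2 (chr17:76850672-76850700, minus strand, 3′ UTR): gctttctgcatGTGACGCcagctaagcat
MMP2 (chr16:55530843-55530871, plus strand, before the 3′ UTR): tttggcggactGTGACGCcacgtgacaag
The window of *ADAM10* has a run of 9 bases in common with that of *SOX11*, the word and the 2 bases after it. For *TIMP2* and *MMP2* the run that includes the word is no longer than its 7 bases. Over the whole window of 29 bases, 14 positions match that of *SOX11* in *ADAM10* and 12 in each of *TIMP2* and *MMP2*. The siRNA sequences were not used here, and whether the word has a part in any value below was not tested.

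Library totals ran from 7039594 to 16592492 counts, so that a floor of 3 counts corresponds to 0.181 to 0.426 CPM. CPM are counts scaled to the library total after TMM normalization over all 18 samples, and floors cover counting error only. *SOX11* mRNA was lower with its siRNA in every line. In REH the control samples had 97.8, 97.5 and 92.7 CPM of *SOX11* and the *SOX11* siRNA samples 47.3, 53.1 and 60.9 CPM. The log2 fold change of *SOX11* was -0.83 for REH, -0.91 for 697 and -0.67 for RCH-ACV (adjusted p = 1.45e-08, 0.000221 and 2.46e-06, edgeR's quasi-likelihood test). Of 8 B-cell precursor markers all were detected in 697 and RCH-ACV and all but *VPREB1*, with 2 counts over the 6 samples, in REH. Their summed level parted with the siRNA in REH, at 3870 to 4050 CPM in the controls and 4280 to 4340 CPM with *SOX11* siRNA, and the other way in 697, at 2140 to 2220 CPM and 2030 to 2090 CPM. In RCH-ACV it was 2020 to 2080 CPM and 2070 to 2190 CPM. The sum follows the most abundant markers and does not give the direction of each. Mean *MME* was higher with *SOX11* siRNA in each line (from 1130 to 1430 CPM in REH, 41.6 to 53.3 in 697, 10.2 to 15.1 in RCH-ACV). Mean *EBF1* was lower in each line (from 355 to 322 CPM in REH, 304 to 241 in 697, 469 to 419 in RCH-ACV). The part of these shifts in the values below was not tested. Markers of T cells summed to at most 0.19 CPM, and the fibroblast genes *COL3A1*, *DCN* and *LUM* were at 0 in all samples. Since RNA was taken from whole cultures, fewer cells with a transcript and less of it in each cell cannot be told apart.

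With *SOX11* siRNA, *ADAM10* mRNA was lower in all 3 lines, *TIMP2* mRNA was lower mainly in 697 and RCH-ACV, and *MMP2* and *ADAMTS9*, which only RCH-ACV expressed, were lower there. *ADAM17*, *ADAM9* and *ADAM15* differed little. A gene was called when its adjusted p-value over all tested genes of the line was under 0.05. In REH, where 4.65% of 12787 tested genes were called and 2.01% were called lower, 1 of the 6 genes that passed the filter on low counts was called, *ADAM10*. In 697, where 0.559% of 12169 genes were called and 0.477% were called lower, 2 of 6 were, *ADAM10* and *TIMP2*. In RCH-ACV, where 7.51% of 12963 genes were called and 3.92% were called lower, 4 of 8 were, *ADAM10*, *TIMP2*, *ADAMTS9* and *MMP2*. All of these calls were towards lower levels with *SOX11* siRNA, and nothing is read from the counts because this contrast chose the genes. The median log2 fold change of the tested members was -0.03, -0.05 and -0.17 in the order REH, 697 and RCH-ACV, and that of all tested genes was -0.002, -0.004 and 0.005.

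**Figure D1:**
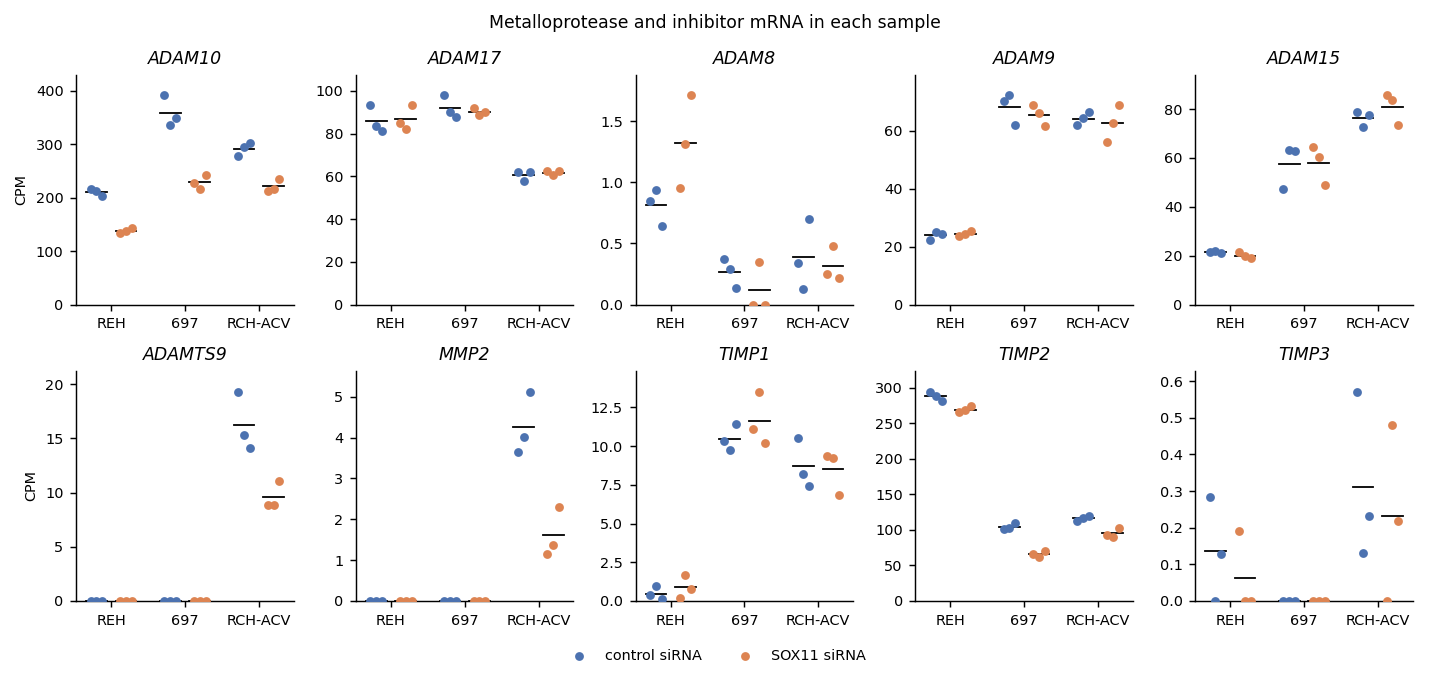
Level of each of the 10 genes (CPM, linear axis from 0) in every sample by cell line, with control siRNA in blue and *SOX11* siRNA in orange and a black line at the mean of each group of 3. The *SOX11* siRNA samples of *ADAM10* sit below all control samples in each line, and *MMP2* and *ADAMTS9* are above 0 in RCH-ACV alone.

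*ADAM10* lies on chromosome 15 of GRCh37 from 58881008 to 59041990 on the minus strand. In REH it stood at 216, 212 and 203 CPM in the control samples and at 134, 137 and 144 CPM with *SOX11* siRNA. The lowest control sample was well above the highest *SOX11* siRNA sample. In 697 the control samples had 391, 335 and 349 CPM of *ADAM10* and the *SOX11* siRNA samples 227, 217 and 242 CPM. In RCH-ACV they had 277, 294 and 302 CPM and 213, 217 and 234 CPM. The groups did not overlap in any of the 3 lines, and the distance between them was narrowest in RCH-ACV. The *SOX11* siRNA mean amounted to 66.0% of the control mean in REH, to 63.8% in 697 and to 75.9% in RCH-ACV. The log2 fold changes of *ADAM10* were -0.59 (SE 0.04), -0.66 (SE 0.06) and -0.40 (SE 0.05).

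*ADAM10* was the gene of this set with the most counts in 697 and RCH-ACV, with 1046 to 3608 counts in each of the 18 samples. Its difference therefore rests on deeper data than that of any other protease here. *ADAM10* has 1 transcript in the tables, so no choice among transcripts enters its value. The 7 annotated genes that overlap it are pseudogenes and noncoding RNAs.

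The genes closest to *ADAM10* in pattern were ranked over all samples. Because *ADAM10* was chosen for its difference with *SOX11* siRNA and *SOX11* is the target, the place of *SOX11* in this ranking restates that contrast. Across the 18 samples, with the mean of each line removed, Pearson's r of log2 CPM between *ADAM10* and *SOX11* was 0.977, the highest of the 11387 genes whose mean reached 1 CPM in every line. The next were *MTCH2*, a protein of the outer mitochondrial membrane (0.966), *CANT1*, a nucleotidase of the Golgi (0.963), *LZIC* (0.955) and *NDST1*, an enzyme of heparan sulfate synthesis (0.952). The samples form separate clusters by siRNA, so these values mainly rank genes by how cleanly the siRNA groups part. With the mean of each group of 3 removed, r with *ADAM10* was 0.482 for *SOX11*, 0.566 for *MTCH2*, 0.679 for *CANT1*, 0.607 for *LZIC* and 0.468 for *NDST1*, so that *SOX11* came after *CANT1*, *LZIC* and *MTCH2*. Values of 1 sample share a library and its depth. No such ranking is given for *MMP2*, which was at 0 in 12 of the 18 samples.

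**Figure D2:**
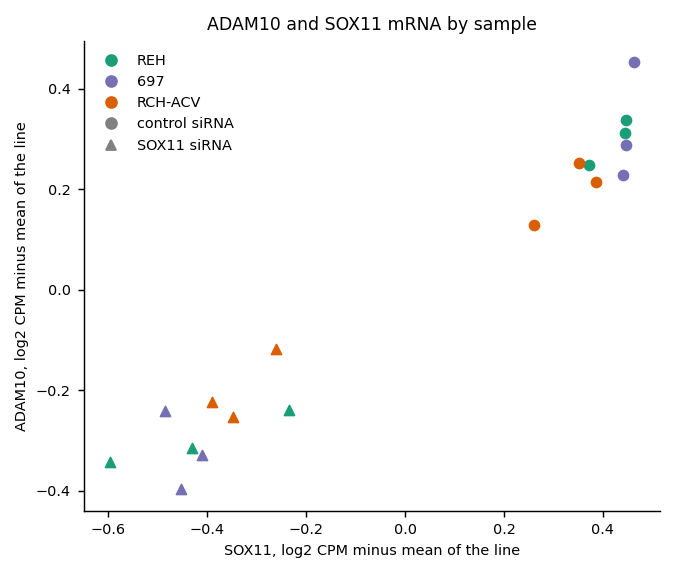
*ADAM10* against *SOX11* in each of the 18 samples, both as log2 CPM minus the mean of the cell line, with circles for control siRNA, triangles for *SOX11* siRNA and a color for each line. The samples part into an upper right cluster of controls and a lower left cluster of *SOX11* siRNA samples, with nothing between them.

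*TIMP2*, the inhibitor that also docks *MMP2* to its activator at the membrane, lies on chromosome 17 from 76849059 to 76921469 on the minus strand. In 697 it stood at 101, 103 and 110 CPM in the control samples and at 65.5, 62.5 and 70.0 CPM with *SOX11* siRNA. The groups lay apart, and the *SOX11* siRNA mean was at 63.0% of the control. In RCH-ACV the control samples had 113, 117 and 120 CPM of *TIMP2* and the *SOX11* siRNA samples 92.8, 90.2 and 102 CPM, a mean at 81.3% of the control. In REH, which had the most *TIMP2*, the control samples had 294, 288 and 281 CPM and the *SOX11* siRNA samples 265, 268 and 274 CPM. The groups were apart in REH too, but the mean stayed at 93.4% of the control and the gene was not called. The log2 fold changes of *TIMP2* were -0.09 (SE 0.04), -0.68 (SE 0.07) and -0.30 (SE 0.06) in the same order of lines as for *ADAM10*. *CEP295NL*, a coding gene that overlaps *TIMP2* on the same strand, had at most 4 counts in any sample.

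*TIMP1* and *TIMP3* showed no such difference. In 697, *TIMP1* stood at 10.3, 9.76 and 11.4 CPM in the control samples and at 11.1, 13.5 and 10.2 CPM with *SOX11* siRNA (log2 fold change 0.14, SE 0.15). In RCH-ACV it stood at 10.5, 8.17 and 7.45 CPM and at 9.34, 9.26 and 6.87 CPM (-0.03, SE 0.16). The groups of *TIMP1* overlapped in both lines. In REH, *TIMP1* had 1 to 13 counts in a sample and did not pass the filter. *TIMP3* was at 0 in all 6 samples of 697, which over their 49829656 counts allows a level of up to 0.0602 CPM, and had 0 to 8 counts in the samples of the other lines.

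*MMP2* lies on chromosome 16 from 55423612 to 55540603 on the plus strand. In RCH-ACV it had 32, 31 and 44 counts in the control samples, or 3.65, 4.02 and 5.12 CPM, and 9, 23 and 21 counts with *SOX11* siRNA, or 1.14, 1.38 and 2.29 CPM. Every *SOX11* siRNA sample was below every control sample, with a mean at 37.6% of the control (log2 fold change -1.43, SE 0.26), the lowest share among the tested genes but one that rests on few reads. The sample with 23 counts is the library of RCH-ACV with the largest total, 16592492. In REH and 697 no count fell on *MMP2* in any of 12 samples. Over the 6 libraries of each line this allows a level of up to 0.0524 CPM in REH and 0.0602 CPM in 697. The RCH-ACV control mean of 4.26 CPM was at least 81.4-fold higher than the first limit and at least 70.8-fold higher than the second. Of the 5 *MMP2* transcripts in the tables, each held 159 or 160 counts in all, so they share nearly all reads.

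*ADAMTS9*, a secreted protease of the proteoglycan versican, had the same distribution over the lines. It lies on chromosome 3 from 64501330 to 64673676 on the minus strand and was at 0 in all 12 samples of REH and 697. In RCH-ACV the control samples had 19.3, 15.3 and 14.1 CPM of *ADAMTS9* and the *SOX11* siRNA samples 8.84, 8.90 and 11.1 CPM. The groups did not overlap, and the mean with *SOX11* siRNA was 59.3% of the control (log2 fold change -0.77, SE 0.14). The RCH-ACV control mean of 16.2 CPM was at least 310-fold above the limit for REH and at least 270-fold above that for 697. Of the antisense genes, *ADAMTS9-AS1* had 2 to 6 counts in a sample of RCH-ACV and *ADAMTS9-AS2* at most 1. Strand use in counting is not given in the sources used here, so reads from either strand cannot be told apart.

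Both *MMP2* and *ADAMTS9* are also made by fibroblasts, whose defining genes were therefore read beside them. In RCH-ACV, *COL3A1*, *DCN* and *LUM* were at 0 and *COL1A2* had 2 counts in all 6 samples together. The summed level of the 5 fibroblast markers was 173 to 185 CPM in the RCH-ACV control samples and 180 to 192 CPM with *SOX11* siRNA, almost all of it *PDGFRB*, a receptor tyrosine kinase. *PDGFRB* stood at 178 CPM ± 6.25 in the controls and at 188 ± 6.91 in the *SOX11* siRNA samples (SD, n = 3). The 4 endothelial markers summed to 5.06 to 5.47 CPM in the RCH-ACV controls and to 8.40 to 10.4 CPM with *SOX11* siRNA, in the direction opposite to *MMP2*, with *CDH5* at 0. In REH they summed to 1.42 to 1.80 CPM and 1.83 to 2.56 CPM, and in 697 to 3.79 to 6.38 CPM and 5.50 to 9.61 CPM. Their part in the result was not tested. The 4 monocyte and macrophage markers summed to 28.1 to 34.6 CPM in the RCH-ACV controls and to 25.5 to 31.7 CPM with *SOX11* siRNA, ranges that overlap.

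**Figure D3:**
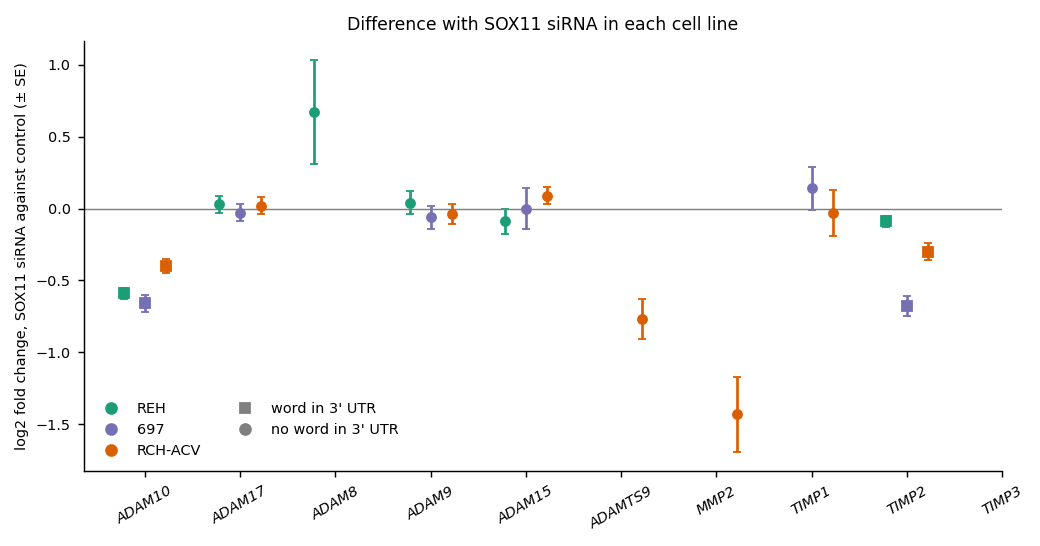
Log2 fold change of *SOX11* siRNA against control siRNA with its standard error for each gene that passed the filter on low counts, colored by cell line. Squares mark genes whose 3′ UTR holds GTGACGC, *ADAM10* and *TIMP2*, which lie between -0.09 and -0.68, and *TIMP3* has no point because no line passed the filter.

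*ADAM17*, the other main sheddase, stayed within its spread in every line. Its *SOX11* siRNA mean was at 101%, 98.3% and 102% of the control in REH, 697 and RCH-ACV. For RCH-ACV, the control samples had 62.0, 58.0 and 62.0 CPM of *ADAM17* and the *SOX11* siRNA samples 62.4, 60.4 and 62.4 CPM. Its log2 fold changes were 0.03, -0.03 and 0.02, each with an SE of 0.06, and the groups overlapped in each line. The 3′ UTR of *ADAM17* does not hold GTGACGC, and neither do those of *MMP2* and *ADAMTS9*, which were lower in RCH-ACV. A part of the word in these values was not tested.

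*ADAM9* and *ADAM15*, catalytically active relatives with roles in adhesion and shedding, behaved in the same way. The log2 fold changes of *ADAM9* were 0.04 (SE 0.08), -0.06 (SE 0.08) and -0.04 (SE 0.07) in REH, 697 and RCH-ACV. Those of *ADAM15* were -0.09 (SE 0.09), 0.00 (SE 0.14) and 0.09 (SE 0.06). The control and *SOX11* siRNA samples overlapped in every line for both genes. *ADAM15* has 12 transcripts in the tables whose totals lie between 6030 and 8639 counts, and *ADAM9* has 4 with totals of 7826 to 8332, so the choice among them changes few reads in most cases.

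*ADAM8*, a protease known from myeloid cells and activated lymphocytes, was near the detection limit. It had 9, 12 and 5 counts in the REH control samples and 10, 10 and 18 with *SOX11* siRNA. On the CPM scale the *SOX11* siRNA samples, at 0.951, 1.31 and 1.71 CPM, lay above the control samples, at 0.848, 0.939 and 0.645 CPM. Only the *SOX11* siRNA samples brought *ADAM8* past the filter on low counts in REH. Their place above the controls is therefore partly built in, and nothing is read from it. The mean was 163% of the control, the log2 fold change was 0.67 with an SE of 0.36, and the gene was not called. In 697 and RCH-ACV, *ADAM8* had 0 to 8 counts in a sample.

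To compare the genes with each other, counts were also scaled per kilobase of the annotated transcript (RPKM). The counts are those of a RefSeq transcript and the length is that of a GENCODE transcript. Their extents may differ, so the order of genes below is approximate. In the REH control samples *TIMP2* was highest at 78.9 RPKM ± 1.84 (SD, n = 3), followed by *ADAM17* at 19.6 ± 1.42 and *ADAM10* at 18.8 ± 0.593, which differ by less than the SD of *ADAM17*. *ADAM15* at 7.32 RPKM ± 0.0822 and *ADAM9* at 5.80 ± 0.339 came next. In 697 *ADAM10* was at 32.1 RPKM ± 2.64 and *TIMP2* at 28.7 ± 1.22, followed by *ADAM17* at 20.9 ± 1.23, *ADAM15* at 19.7 ± 3.09, *ADAM9* at 16.5 ± 1.34 and *TIMP1* at 13.6 ± 1.09. *ADAM17* and *ADAM15* were not apart beyond their spread there. In RCH-ACV *TIMP2* was at 32.0 RPKM ± 1.00, *ADAM10* at 26.1 ± 1.13 and *ADAM15* at 26.0 ± 1.12, the last 2 within their SD of each other. *ADAMTS9* at 2.13 RPKM ± 0.358 and *MMP2* at 1.21 ± 0.217 were far lower. The annotated *ADAM10* transcript is 11158 bases long with a 3′ UTR of 8738 bases, so its RPKM is too low if most of its reads came from a shorter form.

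**Figure D4:**
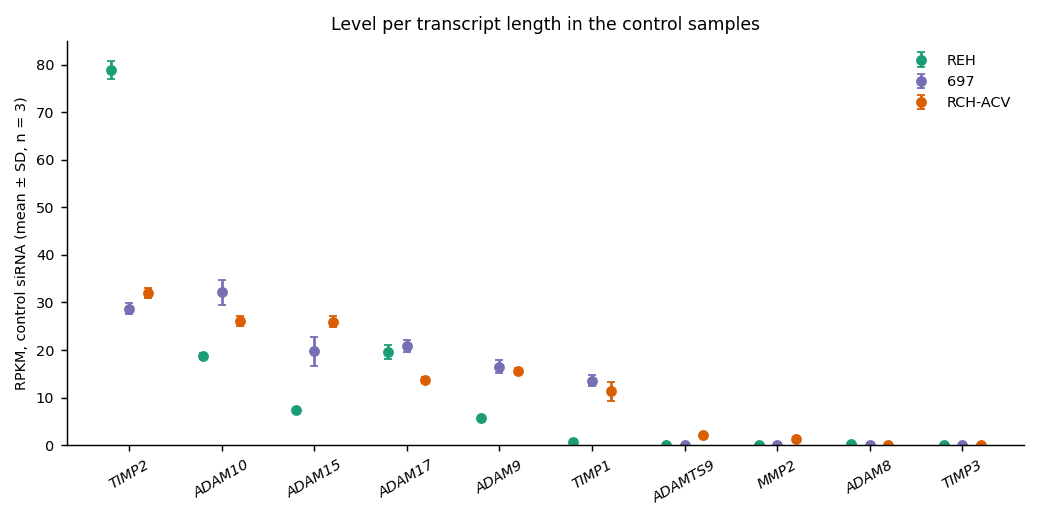
Level per transcript length in the control siRNA samples (RPKM, linear axis, mean ± SD of 3 samples) for the 10 genes, ordered by their highest line. *TIMP2* in REH stands apart at 78.9 RPKM, and *ADAMTS9* and *MMP2* are at 0 in REH and 697.

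The lines differed in which enzymes and inhibitors they carried. On the CPM scale, which compares a gene with itself, the control levels of *ADAM10* were highest in 697 (358 CPM ± 29.5), then RCH-ACV (291 ± 12.6) and REH (210 ± 6.62; SD, n = 3), with no overlap between neighbours. *TIMP2* had the reverse extreme, with 288 CPM ± 6.70 in REH, 117 ± 3.66 in RCH-ACV and 105 ± 4.47 in 697, and the ranges of RCH-ACV and 697 lay apart by little. *ADAM9* was 2.69 times and *ADAM15* 2.68 times higher in the next line up than in REH, while the ranges of *ADAM9* in 697 and RCH-ACV overlapped. *TIMP1* was 18.1 times higher in RCH-ACV than in REH, where it had 17 counts in the 3 control samples, and its ranges in 697 and RCH-ACV overlapped. *ADAM17* was lowest in RCH-ACV at 60.7 CPM ± 2.33, below 85.9 ± 6.25 in REH and 91.7 ± 5.40 in 697, and the last 2 overlapped. Each line is 1 culture history, so differences between lines describe these 3 lines only.

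The rest of the system was read from 117 further genes in 7 lists: other ADAM, ADAMTS and MMP genes, other inhibitors, regulators of the sheddases, γ-secretase subunits and known shedding substrates. In REH 54 of them were tested and 6 were called (11.1%, against 4.65% of all genes), with a median log2 fold change of -0.05. In 697 57 were tested and 0 were called by edgeR and by DESeq2, with 8 at an unadjusted p under 0.05. There 0.559% of all genes were called by edgeR, and the median of the 57 was -0.07, against -0.004 over all tested genes. In RCH-ACV 61 were tested and 3 were called (4.92%, against 7.51% of all genes), with a median of -0.02. In the interaction test between the lines, where 0.734% of 14026 genes were called, 0 of 69 tested genes of the lists were called by edgeR, with 11 at an unadjusted p under 0.05. A call of 1 of these genes in 1 line and not in another is therefore not shown to be a difference between lines.

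Among the substrates, *ICOSLG*, a costimulatory ligand that is shed from B cells, rose in REH from 60.8 CPM ± 6.30 to 73.6 ± 2.46 (SD, n = 3; log2 fold change 0.29, SE 0.06, adjusted p = 0.00681 by edgeR). In RCH-ACV, *TNFRSF1B*, a TNF receptor, rose from 14.5 CPM ± 1.88 to 22.0 ± 0.563 (0.59, SE 0.10, adjusted p = 0.00188 by edgeR). *CD44*, the hyaluronan receptor, rose there from 366 CPM ± 11.9 to 410 ± 15.5 (0.16, SE 0.04, adjusted p = 0.0230 by edgeR). *CDH2*, the *ADAM10* substrate N-cadherin, fell in RCH-ACV from 62.4 CPM ± 0.227 to 47.3 ± 2.05 (-0.40, SE 0.06, adjusted p = 0.000661 by edgeR). Of 38 substrates, 19 were tested in REH with 2 higher (10.5% called, against 4.65% of all genes). In 697 21 were tested with 0 called, against 0.559% of all genes. In RCH-ACV 25 were tested with 2 higher and 1 lower (12% called, against 7.51% of all genes). With so few genes tested, nothing is read from these counts. *APP*, the amyloid precursor protein and the substrate with the highest level (119 RPKM over the 18 samples), was not called in any line, with log2 fold changes of -0.03 (REH), -0.11 (697) and -0.14 (RCH-ACV).

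Among the proteases, *ADAMTS7* fell in REH from 17.4 CPM ± 1.56 to 12.6 ± 0.81 (SD, n = 3; log2 fold change -0.44, SE 0.10, adjusted p = 0.0128 by edgeR). Of the membrane-bound MMPs, *MMP15* fell in REH from 43.5 CPM ± 4.91 to 35.6 ± 2.49 (-0.29, SE 0.08, adjusted p = 0.0281 by edgeR). *MMP17* fell in REH from 14.0 CPM ± 1.26 to 10.4 ± 0.901 (-0.42, SE 0.11, adjusted p = 0.0307 by edgeR). *MMP17* was not called in 697 (-0.68, SE 0.23) or in RCH-ACV (0.10, SE 0.18). The 3′ UTR of *MMP17* holds GTGACGC, as do those of *ADAM29* and *MMP8*, 3 of the 117 genes (2.56%, against 1.38% of all genes). A part of the word in the values of *MMP17* was not tested. In 697 *MMP15* stood at 4.06 CPM ± 0.646 and 1.77 ± 0.651 and was not called (-1.21, SE 0.29, adjusted p = 0.143 by edgeR). *MMP11*, a secreted protease and the highest of the other MMPs at 13.0 RPKM over the 18 samples, was not called in any line. *MMP14*, the membrane protease that activates *MMP2*, was not called either. In RCH-ACV *MMP14* stood at 49.0 CPM ± 0.93 with control siRNA and 40.9 ± 4.21 with *SOX11* siRNA (-0.25, SE 0.07, adjusted p = 0.0547 by edgeR), and it was named after its values were seen. *ADAM22* and *ADAMTS10* had the highest levels of their lists, 3.12 and 5.52 RPKM, and were not called. These lists go by gene family, and *ADAM22* is on its list by family and not for protease activity.

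Among the regulators, *TSPAN17*, a tetraspanin that escorts *ADAM10* to the cell surface, fell in REH from 34.6 CPM ± 1.22 to 27.6 ± 1.88 (SD, n = 3; log2 fold change -0.30, SE 0.07, adjusted p = 0.0159 by edgeR). Its log2 fold change was -0.01 (SE 0.08) in 697 and 0.10 (SE 0.05) in RCH-ACV, and the difference between the lines did not pass (adjusted p = 0.0659 by edgeR). *TSPAN14*, the tetraspanin of this group with the highest level at 41.0 RPKM, was not called, with log2 fold changes of -0.08, -0.11 and -0.05. Of 15 regulators, 12 (REH), 11 (697) and 12 (RCH-ACV) were tested, and *TSPAN17* in REH was the 1 that was called. Over all tested genes of these lines 4.65%, 0.559% and 7.51% were called. Of the γ-secretase subunits 5, 6 and 6 were tested in the same order of lines, and none was called. With so few genes tested, nothing is read from these counts. *APH1A*, the most abundant subunit at 100.0 RPKM, had log2 fold changes of -0.04, -0.03 and 0.03. *RECK*, a membrane-anchored MMP inhibitor and the highest of the other inhibitors at 9.85 RPKM, was not called either.

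**Figure D5:**
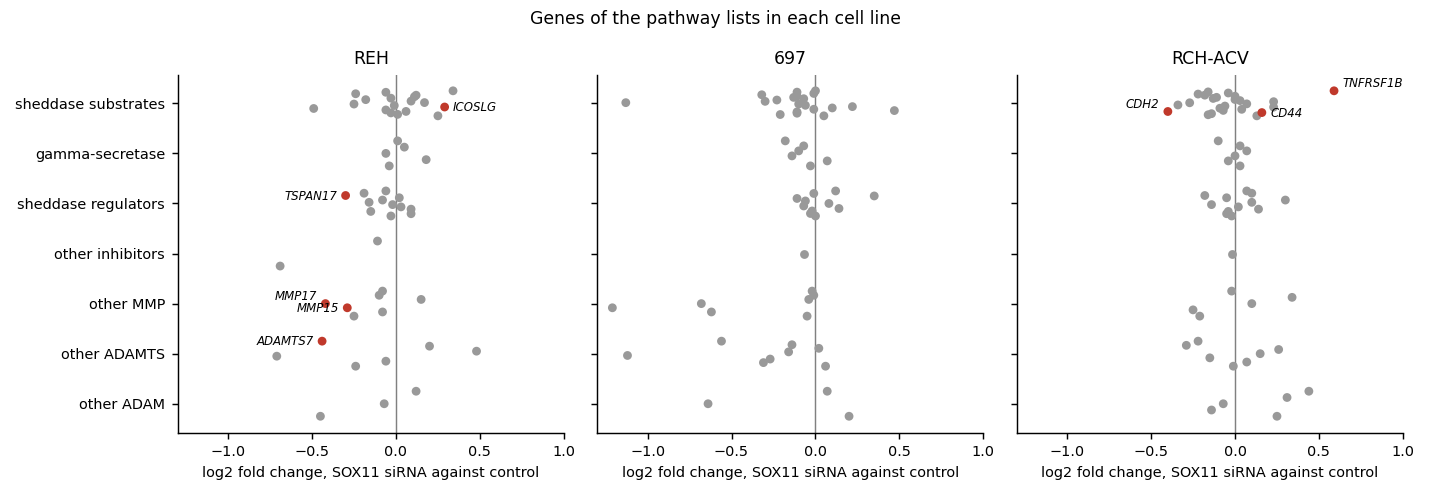
Log2 fold change of *SOX11* siRNA against control siRNA for each tested gene of the 7 lists in each cell line, with called genes in red and named and the others in gray. The plot leaves out 1 gene, which is among the 6 called in REH, while 697 has 0 called genes and RCH-ACV has 3.

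The calls of these other genes depended on single libraries. In REH 2 of the lists' genes were called without *SOX11* siRNA replicate 2, 3 without control siRNA replicate 3, 4 without control siRNA replicate 2 and 8 without control siRNA replicate 1, against 6 with all samples. *ICOSLG* was called in each of these fits. *ADAMTS7* lost its call without control siRNA replicate 3 or *SOX11* siRNA replicate 2, and *TSPAN17* without these or control siRNA replicate 2. *MMP15* lost it without control siRNA replicate 2, where its log2 fold change was -0.19 in place of -0.29, or without *SOX11* siRNA replicate 1 or 2. *MMP17* was called without control siRNA replicate 1 or *SOX11* siRNA replicate 1 and in none of the other 4 such fits. With DESeq2 none of *ADAMTS7*, *TSPAN17*, *MMP15* and *MMP17* was called in REH. In RCH-ACV 9 were called without *SOX11* siRNA replicate 3, against 3 with all samples, and *CD44* was lost without any 1 of the other 5 samples, while *CDH2* and *TNFRSF1B* were called in each fit.

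The promoters of 6 of the 10 genes were found in RefSeq (GRCh38.p14), each as 250 bases before the start and 50 after it. The SOX core words AACAAT and AACAAAG were searched on both strands. AACAAT is in 10.3% and AACAAAG in 5.28% of 27305 promoters, and neither is in the promoters of *ADAM10*, *ADAM15*, *ADAM17*, *ADAM8*, *TIMP1* or *TIMP3*. This says only that these letters are not in these 300 bases. The promoters of *ADAM9*, *ADAMTS9*, *MMP2* and *TIMP2* were not found, so that of the called members only *ADAM10* was searched. The 6 promoters are 65.0% to 79.3% G and C, and the shares over all promoters are not matched for this.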

How the data were processed

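The authors sequenced stranded mRNA libraries of 18 samples, aligned reads to hg19 with STAR 2.5.3a (FastQC 0.10.1 for read quality, per the labels) and used HOMER to count reads per RefSeq transcript. They deposited raw read counts per transcript, 1 table per cell line, without normalization. The tables hold 0 columns of other samples. Of 50678 transcripts 98.0% (99.0% of counts) matched a gene symbol. Whether counting used strand is not given in the sources used here.

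For each gene the transcript with the highest total was kept, which left 26941 genes. Each line was fitted alone with edgeR 4.0.16 in R 4.3.3 (TMM, filterByExpr, quasi-likelihood F-test, two-sided, Benjamini-Hochberg over all tested genes, threshold 0.05). The difference between lines was the interaction of siRNA and line over all 18 samples. The scripts were tested on simulated data. Printed CPM are scaled over all 18 samples, and RPKM use the MANE Select transcript of GENCODE v44lift37 (GRCh37), since the tables hold no length. Total counts of 7039594 to 16592492 per sample set the floors of 3 counts. The chi-square per degree of freedom of replicate pairs was 1.30 to 5.18, more than counting alone gives, so no replicate pair was counted as 1 sample.

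The members and lists were chosen with earlier results of these data known. Named were all 10 members, up to 12 called genes per line from the lists, the gene with the highest RPKM of each list, the 5 genes most like *ADAM10*, and *SOX11*, apart from 1 called gene of REH that is counted but not reported here. The labels do not say whether the replicate numbers pair the samples, and the main fits did not pair them. Correlations of deviations between same-numbered samples ran from -0.244 to 0.264, which with 3 samples a group cannot decide it. Alternatives were DESeq2 1.42.0, RLE size factors, scaling by library size alone, no filter, CPM above 1 in at least 3 samples, a replicate block, an adjusted p under 0.01, 1 fit over the 18 samples, the transcript highest within a line, and leaving out each sample. Those of the interaction were chosen after seeing the data. Tables and plots used Python 3.11.15, numpy 2.4.6, pandas 2.3.3 and matplotlib 3.10.9. Protein sequences were not used here.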

Additional observations from a re-analysis of the deposited data

How the results depend on the processing

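Over 278 alternative fits of the 20 tested values of the 10 genes, the side of the threshold changed in 0. The counts of called members stayed at 1, 2 and 4 in REH, 697 and RCH-ACV in every alternative. The 10 genes were chosen with their difference with *SOX11* siRNA already known. Their steadiness is therefore partly built in and cannot be weighed against that of the pathway genes. The sign of uncalled values near 0 did change between fits that left out 1 sample: *ADAM17* ran from -0.02 to 0.09 in REH, -0.07 to 0.01 in 697 and -0.01 to 0.04 in RCH-ACV, *ADAM15* in 697 from -0.14 to 0.11, and *ADAM9* and *TIMP1* in RCH-ACV from -0.10 to 0.02 and -0.13 to 0.14. Over the same fits, the log2 fold change of *MMP2* in RCH-ACV ranged from -1.71 to -1.28 and that of *ADAM10* in REH from -0.62 to -0.57. The pathway genes were less steady: in REH the count of 6 became 2 with DESeq2, 2 in 1 fit over the 18 samples and 2 at an adjusted p under 0.01, and 2 to 8 when 1 sample was left out. In 697 the count of 0 became 2 without a filter on low counts and 4 in the fit over the 18 samples (0 to 0 with 1 sample left out), and in RCH-ACV the count of 3 became 6 without the filter and 2 to 9 with 1 sample left out. For the difference between lines the count of 0 became 3 without the filter and 0 to 1 with 1 sample left out. Over all genes the called numbers in REH were 594, then 317 with DESeq2, 228 in the fit over the 18 samples, 275 at an adjusted p under 0.01 and 296 to 522 with 1 sample left out. In 697 they were 68, then 119 without the filter, 189 in the fit over the 18 samples, 29 at an adjusted p under 0.01 and 25 to 70 with 1 sample left out. In RCH-ACV they were 973, then 570 with DESeq2, 401 at an adjusted p under 0.01 and 386 to 2479 with 1 sample left out, lowest without *SOX11* siRNA replicate 2 and highest without *SOX11* siRNA replicate 3. The causes were not tested. With the replicate block the called numbers over all genes were 470, 29 and 700 in REH, 697 and RCH-ACV. The members called stayed 1, 2 and 4, and *MMP17* in REH was the 1 pathway call lost. Whether the replicate numbers pair the samples is not given. Scaled by library size alone, 4 of 25 control levels moved by more than 1 SD: *ADAM10* (19.7 RPKM), *ADAM15* (7.65 RPKM) and *TIMP2* (82.4 RPKM) in REH, and *TIMP2* in 697 (27.4 RPKM). *MMP2*, *ADAM8* and *TIMP3* have under 50 counts in any sample, which limits what can be said of them.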
